A study of Mus musculus with 10 samples.

Results

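The comparison described here set subcutaneous 4T1 tumours of mice given Lipo-MK1775 together with NLG against tumours of negative control mice. It covers 4 of the 10 libraries of the study, 2 per group, taken by their labels, and 12485 of 52324 summed genes had enough signal to be tested. Each library is total RNA of a tumour collected on day 14. 4T1 is a mouse mammary carcinoma line. The study has 5 groups of 2 libraries. The combination group is written Lipo-MK1775+NLG in the sample labels, and the design text writes its second agent as NLG919. The control is negative control in the labels and PBS in the design text. The other groups are Free-MK1775, the same with NLG919, and Lipo-MK1775. The labels and design text do not state doses, schedule, the make-up of the Lipo form or the strain, sex and age of the mice. They do not say whether the 2 libraries of a group came from separate mice, so the p-values measure only the spread between these libraries, which may be technical. No group received NLG919 without MK1775 or an empty Lipo carrier.

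MK1775, also called adavosertib, inhibits WEE1, the kinase that puts an inhibitory phosphate on CDK1 and so holds a cell before mitosis. NLG919 inhibits IDO1, the enzyme that starts the breakdown of tryptophan to kynurenine, a ligand of the aryl hydrocarbon receptor (AhR). The title of the study names ferroptosis, an iron-dependent death by lipid peroxidation that GPX4 and cystine import through SLC7A11 hold back. 4T1 tumours are known for secreting G-CSF and for drawing in many neutrophils.

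The label of a cancer cell line was checked against epithelial markers. Krt8, an epithelial keratin, stood at 166 and 241 FPKM in the control libraries and at 250 and 221 FPKM in the treated ones. Its partner Krt18 stood at 227 and 358 FPKM against 320 and 292 FPKM. Epcam, an epithelial adhesion molecule, was low and uneven, at 3.82 and 0.433 FPKM in control and 0.134 and 2.21 FPKM in treated libraries. FPKM is the number of fragments scaled by transcript length and library size, as the authors computed it, and it allows levels of different genes to be set side by side. Mitochondrial transcripts made up 2.98% and 3.49% of the summed FPKM of the treated libraries and 4.79% and 3.7% of the control libraries. In 3 libraries of other groups that share was between 47.3% and 64.1%, and the spread used in the tests was therefore taken from the 6 libraries of control, Free-MK1775 and Lipo-MK1775+NLG, whose shares were between 2.98% and 4.82%. The file gives no counts, so read depth is unknown.

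Few genes were called, which with 2 libraries per group does not show that few genes differed. On the log2(FPKM + 1) scale, limma called 2 of 12485 genes at an adjusted p under 0.05, or 0.016% of those tested, and both were lower in the treated tumours. A further view without adjustment found 863 genes higher (6.91%) and 615 lower (4.93%) at a limma p under 0.05, together 11.8%. The libraries of the groups did not overlap for 3826 genes that were higher (30.6%) and 2856 that were lower (22.9%), together 53.5%. Median change over all genes was 0.029 log2 units, and 54.8% of genes had the higher mean in the treated tumours. A typical gene differed by 0.17 log2 units between the group means (median of absolute differences). That median was 0.14 between the control libraries, 0.13 between the treated libraries and 0.21 between the Free-MK1775 libraries. The first compares means of 2 libraries and the others compare single libraries, which vary more, so these sizes are not on equal terms. Changes of at least 1 log2 unit between group means were seen for 40 genes upward and 75 downward. Between single libraries, 220 genes differed that much in control, 166 in the treated group and 328 in Free-MK1775, with the same limit. With 2 libraries per group, an exact permutation test of a single gene cannot go below p = 0.333, so calls rest on the variance that limma shares across genes.

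**Figure D1:**
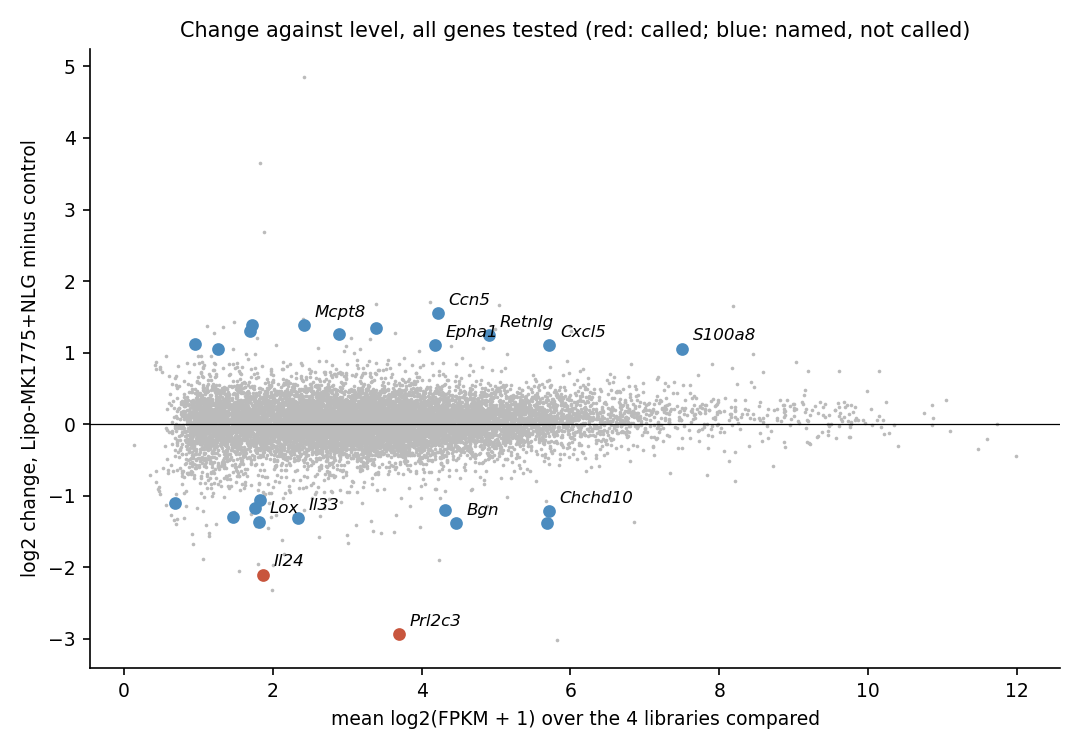
Each point is one of the 12485 genes tested, with its mean log2(FPKM + 1) over the 4 libraries on the x axis and the log2 change of Lipo-MK1775+NLG minus control on the y axis. Red points are the 2 genes called by limma, Prl2c3 and Il24, and blue points are genes named by rule that were not called. Some grey points lie as far out as the blue ones. Between the control libraries 220 genes differed by at least 1 log2 unit, though single libraries vary more than the group means compared here.

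Prl2c3 and Il24 were the genes called, and both were lower. Prl2c3 encodes a proliferin, a growth-promoting relative of prolactin that is secreted by the placenta and by some proliferating cell lines. Il24 encodes an IL-10 family cytokine. Prl2c3 stood at 35.2 and 34.6 FPKM in the control libraries and at 4.67 and 2.91 FPKM in the treated libraries. Its group means were 34.9 ± 0.374 and 3.79 ± 1.24 FPKM (SD, n = 2 each), a fall of 2.93 on the log2(FPKM + 1) scale (log2 change -2.93, SE 0.19, limma adjusted p = 0.0265). Il24 stood at 6.79 and 6.39 FPKM in control and at 0.679 and 0.861 FPKM in treated libraries. Group means were 6.59 ± 0.283 and 0.77 ± 0.128 FPKM (SD, n = 2 each), with a log2 change of -2.10 (SE 0.15, limma adjusted p = 0.0311), which understates the ratio because Il24 is low. Neither gene's libraries overlapped between groups. In the Free-MK1775 tumours, which received no NLG919, Prl2c3 lay between the other groups at 12.1 and 13.9 FPKM, and Il24 was low, at 0.909 and 1.06 FPKM.

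These calls depended on which libraries were fitted. Leaving out negative control replicate 1 gave limma adjusted p-values of 0.324 for Prl2c3 and 0.408 for Il24, and leaving out control replicate 2 gave 0.124 and 0.205. Without Free-MK1775 replicate 1 both were at 0.0605, and without Free-MK1775 replicate 2 both were at 0.0571. Prl2c3 stayed called without Lipo-MK1775+NLG replicate 1 (0.0327) or replicate 2 (0.0384), and Il24 did not (0.367 and 0.197). Log2 changes in these fits ran from -3.20 to -2.66 for Prl2c3 and from -2.18 to -2.03 for Il24. When the assembled transcripts without a symbol were left out of the sums, the adjusted p was 0.17 for Prl2c3 and 0.287 for Il24, and no gene was called (1025 at an unadjusted p under 0.05). The summed FPKM of the 12 listed 4T1 epithelial markers was 571 and 680 in control and 670 and 765 in treated libraries. These sums overlapped between the groups and are mostly Krt8 and Krt18. Of the 9 tested markers, 5 were higher and 4 lower. Neutrophil marker sums, 846 and 803 FPKM in control and 1529 and 1311 FPKM in treated libraries, did not overlap. The part of either cell type in the falls of Prl2c3 and Il24 was not tested.

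**Figure D2:**
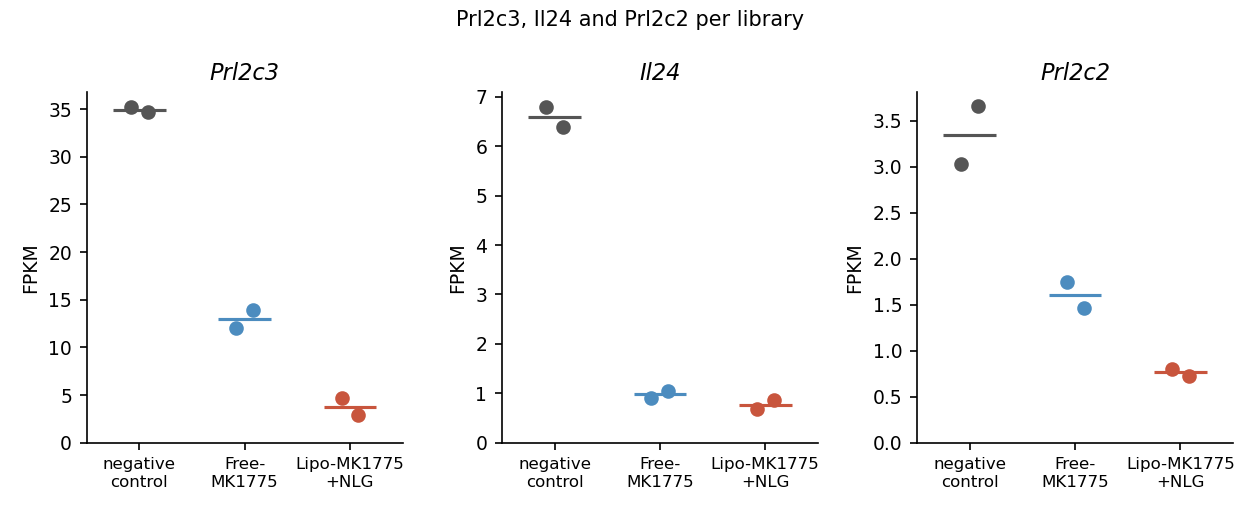
FPKM (y axis, linear, from 0) of Prl2c3, Il24 and Prl2c2 in each library of negative control, Free-MK1775 and Lipo-MK1775+NLG; points are libraries and lines are group means. The control points lie above all others for each gene, with Prl2c3 near 34.9 FPKM in control and 3.79 FPKM in the treated group.

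Prl2c3 lies at chr13:12805705-12815188 on the minus strand and Il24 at chr1:130809811-130815191 on the minus strand (GRCm39, span of the transcripts summed). Prl2c3 has near-identical neighbours, and short fragments can be shared among them. Its transcript Prl2c3-201 was identical at 838 of 857 aligned positions (97.8%) to Prl2c2-201 and at 814 of 857 (95.0%) to Prl2c5-201, so the split of signal among these proliferin genes is uncertain. Prl2c2 was also lower, at 3.03 and 3.66 FPKM in control and 0.802 and 0.729 FPKM in treated libraries (log2 change -1.30, SE 0.17, limma adjusted p = 0.25), and was not called. Prl2c5, looked up after the values of Prl2c3 were seen, was listed at 0.492 and 1.14 FPKM in control and 0.435 and 0.193 FPKM in treated libraries, below the level tested. Whichever copy the fragments came from, the proliferin signal of the control tumours was mostly assigned to Prl2c3.

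Proliferin genes are a textbook target of AP-1, the dimer of Fos and Jun proteins, and the promoters of Prl2c3 and Prl2c5 are shown so that these copies can be compared. A window of Prl2c2 was not used here. The window is 250 bases before to 50 bases after the start, from RefSeq on GRCm38.p6, which is another build than that of the deposited file. Capitals mark a match to the AP-1 letters TGANTCA, searched on both strands. The Prl2c3 window is chr13:12800030-12800329 on the minus strand and the Prl2c5 window is chr13:13182466-13182765 on the plus strand.
Prl2c3: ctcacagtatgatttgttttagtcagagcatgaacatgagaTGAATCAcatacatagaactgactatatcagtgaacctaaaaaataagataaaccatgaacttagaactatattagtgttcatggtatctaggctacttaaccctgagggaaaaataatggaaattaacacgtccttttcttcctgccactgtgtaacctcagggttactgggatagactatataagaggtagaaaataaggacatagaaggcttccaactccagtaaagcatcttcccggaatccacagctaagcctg
Prl2c5: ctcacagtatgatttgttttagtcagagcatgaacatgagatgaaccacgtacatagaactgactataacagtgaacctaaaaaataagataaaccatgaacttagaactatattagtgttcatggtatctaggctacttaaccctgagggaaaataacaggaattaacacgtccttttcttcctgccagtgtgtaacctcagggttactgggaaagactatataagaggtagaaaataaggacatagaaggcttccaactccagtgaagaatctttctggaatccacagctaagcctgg
The windows were identical at 287 of 301 aligned positions (95.3%). Prl2c3 had 1 match, at base 42 of the window and 209 bases before the start, and Prl2c5 had 0. Of 32851 RefSeq promoter windows of the same length, 2565 (7.81%) held the letters.

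No gene that was higher in the treated tumours was called, and the 12 genes named as higher therefore describe these libraries only. The smallest adjusted p among them was 0.144, shared by Mcpt8 and Epha1. Mcpt8, a serine protease of basophils, stood at 2.24 and 2.39 FPKM in control and 8.12 and 7.15 FPKM in treated libraries (log2 change 1.38, SE 0.14). Epha1, an Eph receptor tyrosine kinase, stood at 10.6 and 12.2 against 26.9 and 24.4 FPKM (1.11, SE 0.12). Retnlg, a resistin-like protein of neutrophils, stood at 19.2 and 17.7 against 46.8 and 43.1 FPKM (1.24, SE 0.17, limma adjusted p = 0.25). Each treated library lay above each control library for these 3 genes, which was a condition for being named. The libraries of a pair were close, which the choice by smallest p favours. Of the rest, S100a8 is also on the list of neutrophil markers. S100a8, a calcium-binding alarmin, stood at 145 and 107 against 303 and 223 FPKM (1.06), and Cstdc4, a stefin family gene on none of the lists, at 5.43 and 5.65 against 20.6 and 11.9 FPKM (1.35). Cxcl5, a chemokine that attracts neutrophils through CXCR2, stood at 38.9 and 31.2 against 62.2 and 93.2 FPKM (1.10), and its change was 0.50 when only transcripts that carry a symbol were summed.

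The others named as higher had no shared function that the labels or lists give. Ccn5, a matricellular protein, had the largest difference of the 12 at 1.55 log2 units, with 9.57 and 10.2 against 25 and 38.1 FPKM, but its Free-MK1775 libraries were at 30.6 and 8.7 FPKM and its SE was 0.51. Angptl7, an angiopoietin-like secreted protein, stood at 3.29 and 4.33 against 11.9 and 9.22 FPKM (1.27). Gper1, a membrane estrogen receptor, stood at 1.06 and 1.07 against 3.59 and 4.68 FPKM (1.31). These 3 genes were also high in Free-MK1775 replicate 1 relative to its partner. Low-level genes made up the remainder. Pde9a, a cGMP phosphodiesterase, was at most 0.339 FPKM in control and at least 1.52 FPKM in treated libraries. Zbtb22, at 0.711 and 1.42 against 2.63 and 6.88 FPKM, and Tmem223, at 0.225 and 1.29 against 2.56 and 2.38 FPKM, each share a locus with another gene, and the labels do not state whether counting used strand.

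**Figure D3:**
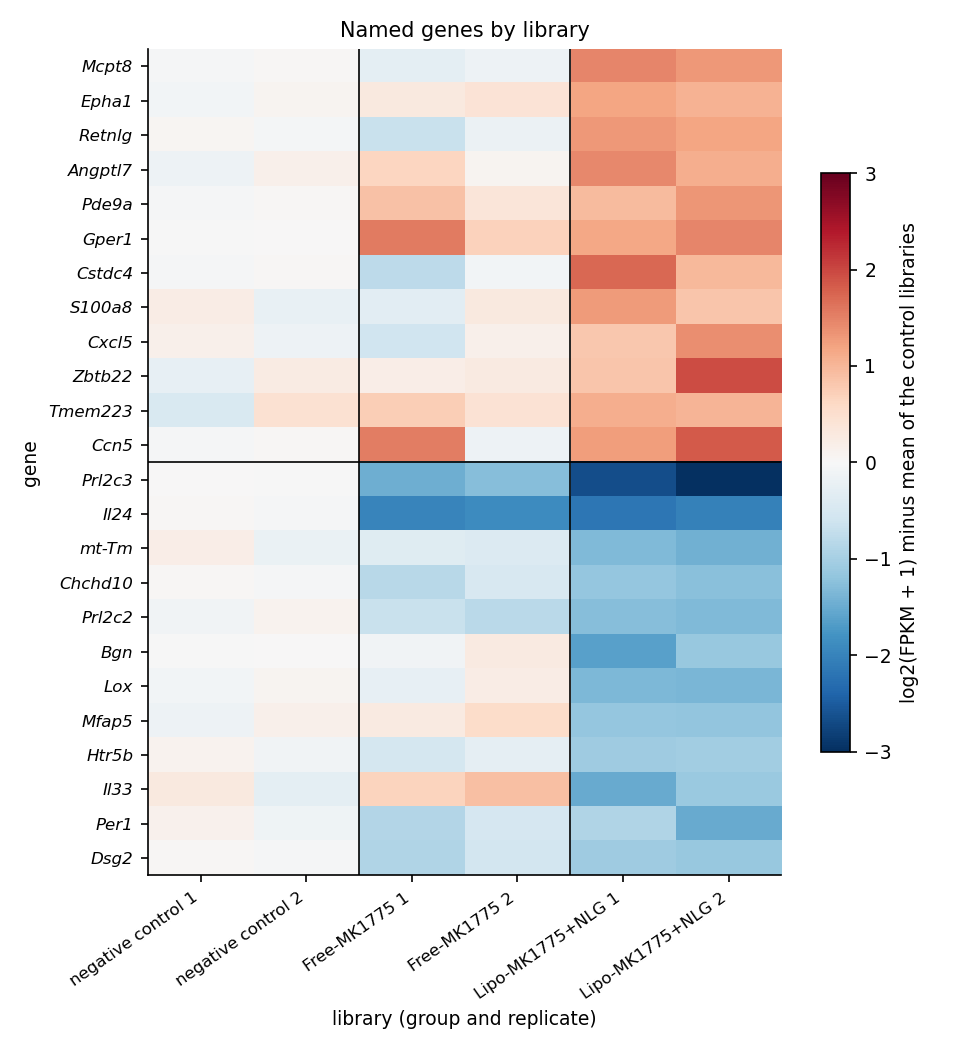
Colour shows log2(FPKM + 1) of each named gene (rows) in each library (columns) minus the mean of the control libraries, from blue (lower) to red (higher). The 12 upper rows are red and the 12 lower rows blue in both Lipo-MK1775+NLG columns, since genes were named by this separation. Il33, Mfap5 and Lox are blue in those columns and pale or red in the Free-MK1775 columns.

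Beside Prl2c3 and Il24, 10 genes that were not called were named as lower. The matrix proteins Bgn, Lox and Mfap5 were among them and are on none of the lists. Bgn, the proteoglycan biglycan, stood at 34.2 and 35.1 FPKM in control and 10.6 and 15.1 FPKM in treated libraries (log2 change -1.38, SE 0.19, limma adjusted p = 0.25). Lox, which cross-links collagen and elastin, stood at 4.31 and 4.95 against 1.22 and 1.16 FPKM (-1.36, SE 0.19, limma adjusted p = 0.25), and the microfibril protein Mfap5 at 3.55 and 4.68 against 1.26 and 1.25 FPKM (-1.17). All 3 were at or above control level in at least 1 of the Free-MK1775 libraries. Il33, an alarmin of stromal and epithelial cells, stood at 8.8 and 5.5 FPKM in control, 1.81 and 2.67 FPKM in treated and 11.6 and 13.8 FPKM in Free-MK1775 libraries (log2 change from control -1.31, limma adjusted p = 0.363). Chchd10, a protein of mitochondrial cristae, had close replicates at 80.8 and 76.6 against 34.4 and 32.3 FPKM (-1.22, SE 0.14, limma adjusted p = 0.192), and Free-MK1775 lay between at 43.6 and 56.3 FPKM.

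Among the remaining genes named as lower, Per1, a core clock gene, stood at 31.9 and 26.8 against 15.2 and 9.66 FPKM (-1.20). The labels do not state the hour at which tumours were taken, so time of day and treatment cannot be told apart for Per1. Htr5b, a serotonin receptor gene, stood at 4.56 and 3.76 against 1.44 and 1.49 FPKM (-1.06), and the desmosomal cadherin gene Dsg2 at 1.41 and 1.32 against 0.134 and 0.0739 FPKM (-1.10). The mitochondrial methionine tRNA mt-Tm stood at 93.8 and 71.7 against 32.0 and 29.6 FPKM (-1.38, limma adjusted p = 0.144). It overlaps other mitochondrial transcripts in the assembly, and an FPKM of so short an RNA is uncertain. Among 13 tested genes encoded in mitochondria, 10 were lower and 3 higher with a median of -0.33. Of these 13, 2 did not overlap downward, against 22.9% of all genes, and 0 had a limma p under 0.05. The median ran from -0.45 to -0.12 as single libraries were left out. On this list, mt-Co1, a subunit of cytochrome oxidase, stood at 5370 and 4132 against 3246 and 3707 FPKM.

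Neutrophil markers were the list farthest above the median of all genes. Of 18 markers, 16 were tested and all 16 had a higher mean in the treated tumours, with a median of 0.72 log2 units against 0.029 over all genes. The libraries of the groups did not overlap for 14 of them, where 30.6% of all genes did so upward, and 10 had a limma p under 0.05, where 6.91% of all genes did. That number was 5 without control replicate 2, 4 without treated replicate 1, 6 without treated replicate 2 and 1 with all 10 libraries fitted. None was called after adjustment. Ly6g, a defining surface marker, was below the level tested, at 0.486 and 0.136 FPKM in control and 0.528 and 0.726 FPKM in treated libraries. Summed over the markers, the level in the Free-MK1775 libraries was 729 and 897 FPKM, like the control sums given above and below both treated ones. Stfa2l1, a stefin-like protease inhibitor, stood at 22.0 and 14.4 against 37.7 and 27.9 FPKM (log2 change 0.83), and Wfdc21, a secreted granulocyte protein, at 3.41 and 4.36 against 9.38 and 6.7 FPKM (0.88). Mmp9, the gelatinase of neutrophil granules, stood at 91.3 and 75.2 against 108 and 119 FPKM (0.45), and Mmp8, the neutrophil collagenase, at 2.81 and 1.96 against 6.21 and 3.58 FPKM (0.77). Lcn2, which binds iron-carrying siderophores and is stored in granules, stood at 115 and 113 against 183 and 181 FPKM (0.66). In bulk tumour RNA, more or fewer cells of a type and more or less RNA per cell cannot be told apart. With each of the 6 libraries left out in turn, the median of the list stayed between 0.55 and 0.72 and 15 or 16 members were higher.

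**Figure D4:**
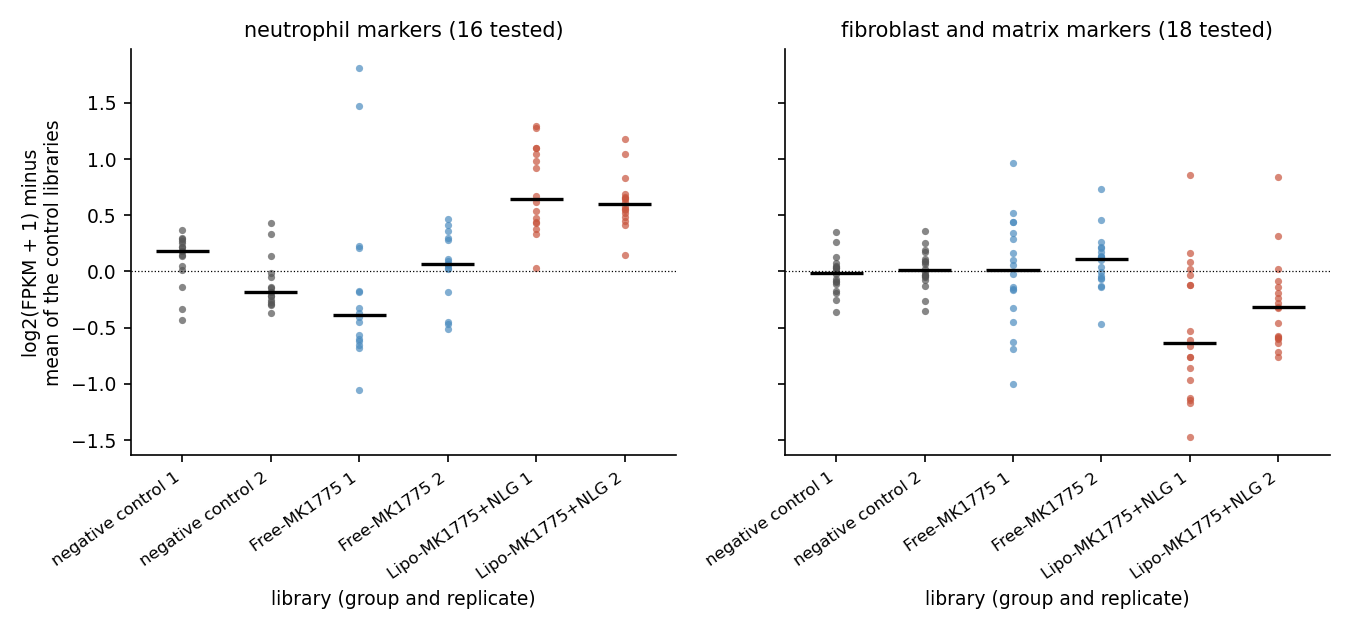
Each point is a tested marker in a library (x axis, group and replicate), as log2(FPKM + 1) minus the mean of the control libraries (y axis); black bars are medians. Neutrophil markers (left) have medians of 0.64 and 0.60 in the treated libraries and from -0.39 to 0.18 in the other 4, and fibroblast and matrix markers (right) have medians of -0.64 and -0.32 in the treated libraries and from -0.01 to 0.11 in the other 4.

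Ligands and cytokines of the neutrophil axis were read next. Of 14 tested CXCR2 ligands and granulopoiesis cytokines, 11 were higher and 3 lower (median 0.26). Among them 6 did not overlap upward and 2 downward, against 30.6% and 22.9% of all genes. Il33, given above as lower, is on this list and had its largest change (-1.31). The median ran from 0.14 without treated replicate 2 to 0.42 without treated replicate 1. Cxcl1, a CXCR2 ligand like Cxcl5, stood at 46.2 and 63.5 FPKM in control and 77.1 and 113 FPKM in treated libraries (log2 change 0.77). Csf3, which encodes G-CSF, the growth factor of granulocytes, stood at 16.5 and 35.4 against 41.6 and 57.4 FPKM (0.98), and its control libraries differed from each other by more than the lower treated library did from the higher control. Both had a limma adjusted p over 0.4 (0.407 and 0.409). CC chemokines, which act mostly on monocytes and lymphocytes, had 11 of 13 tested members higher with a median of 0.42, among them Ccl4 at 6.01 and 7.08 against 8.32 and 9.75 FPKM (0.41) and Ccl6 at 90.8 and 144 against 187 and 169 FPKM (0.63). The eosinophil attractant Ccl11 was lower, at 1.1 and 1.9 against 0.337 and 0.703 FPKM (-0.71). The median of the CC chemokines varied from 0.091 to 0.61 as single libraries were left out.

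Macrophage and monocyte markers leaned the same way with a smaller size. Of 19 tested, 16 were higher and 3 lower, with a median of 0.39 and 12 that did not overlap upward, against 30.6% of all genes. The median was 0.22 without control replicate 1 and 0.26 when only transcripts that carry a symbol were summed. Csf1r, the receptor for the macrophage growth factor CSF1, stood at 27.7 and 31.5 FPKM in control and 40.0 and 38.3 FPKM in treated libraries (log2 change 0.39). Lyz2, the lysozyme of myeloid cells, stood at 311 and 478 against 743 and 668 FPKM (0.87), and the chemokine receptor Cx3cr1 at 4.15 and 2.45 against 7.59 and 8.02 FPKM (1.06). Free-MK1775 replicate 1 was higher still for both, at 893 FPKM for Lyz2 and 8.81 FPKM for Cx3cr1, and its partner was at control level for both. The summed markers stood at 1288 and 1813 FPKM in control and 2100 and 2172 FPKM in treated libraries, and at 2566 and 1593 FPKM in Free-MK1775. Dendritic cell and MHC class II genes, of which 7 of 12 were tested, were all higher with a median of 0.22, led by H2-Eb1 at 56.6 and 62.0 against 83.0 and 106 FPKM (0.65). Of these 7, 3 did not overlap upward, against 30.6% of all genes, and 0 had a limma p under 0.05. Their median was 0.09 without treated replicate 2 and 0.075 with quantile scaling. In the Free-MK1775 libraries the medians relative to control were 1.13 and -0.01.

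Mast cell and basophil markers were mostly lower. Of 10 tested, 8 were lower and 2 higher with a median of -0.58, and Mcpt8, described above, was among the higher ones. Tpsab1, a mast cell tryptase, stood at 26.9 and 25.4 FPKM in control and at 7.89 and 18.8 FPKM in treated libraries (log2 change -1.03, SE 0.40, limma adjusted p = 0.42). Carboxypeptidase Cpa3 stood at 7.5 and 5.4 against 2.15 and 4.14 FPKM (-0.87), and the IgE receptor chain Fcer1a at 2.02 and 1.74 against 0.295 and 1.16 FPKM (-0.78). Treated replicate 1 was the lower of its pair for each of these mast cell genes. The Free-MK1775 libraries stood at 6.13 and 11.2 FPKM for Tpsab1 and at 0.844 and 2.32 FPKM for Cpa3. Leaving out 1 library moved the median of the list between -1.16 and -0.18.

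Fibroblast and matrix markers were mostly lower. Of 19 markers, 18 were tested, 15 were lower and 3 higher, with a median of -0.47, and 10 did not overlap downward, where 22.9% of all genes did so. A limma p under 0.05 was reached by 8 downward, where 4.93% of all genes did, and none was called. That number was 5 without control replicate 2, 4 without treated replicate 1 and 1 with all 10 libraries fitted. Collagen genes were among the lower members, though Col5a1, picked out after its values were seen, overlapped at 7.14 and 9.37 against 8.34 and 10.5 FPKM (0.17). Col1a1 stood at 38.3 and 34.4 FPKM in control and 18.1 and 23.9 FPKM in treated libraries (log2 change -0.78), and its partner chain Col1a2 at 34.9 and 33.3 against 14.6 and 21.6 FPKM (-0.90). Col3a1 stood at 40.8 and 28.0 against 15.0 and 20.2 FPKM (-0.92), and Col5a2 at 7.47 and 10.1 against 3.39 and 4.7 FPKM (-0.95). Treated replicate 1 was lower than replicate 2 for Col1a1, Col1a2, Col3a1 and Col5a2, and every treated value of these was below every control value. In Free-MK1775 libraries Col1a1 stood at 32.9 and 42.1 FPKM and Col3a1 at 35.2 and 46.8 FPKM. The summed markers stood at 877 and 923 FPKM in control and 841 and 761 FPKM in treated libraries. Fibronectin (Fn1), at 395 and 462 against 453 and 351 FPKM, and Sparc, at 201 and 191 against 220 and 199 FPKM, make up most of that sum and overlapped between groups; both were picked out after their values were seen. Leaving out single libraries kept the median between -0.64 and -0.32.

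Matrix metalloproteinases were mixed, with 8 of 13 tested members higher and 5 lower (median 0.16). Mmp2, a gelatinase of fibroblasts, stood at 15.5 and 11.7 FPKM in control and 7.8 and 9.44 FPKM in treated libraries (log2 change -0.59). Mmp12, the macrophage elastase, stood at 37.6 and 48.5 against 25.9 and 23.9 FPKM (-0.75), while the neutrophil enzymes Mmp8 and Mmp9 were higher, as given above. Mmp12 was also low in Free-MK1775, at 19.8 and 24.9 FPKM.

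The drug target and its pathway differed by small amounts. Wee1 stood at 10.7 and 11.8 FPKM in control and 9.07 and 7.32 FPKM in treated libraries (log2 change -0.42, SE 0.16, limma adjusted p = 0.42), and its locus is shared with another symbol. An inhibitor of the kinase acts on the protein, which these data do not measure. Of 16 WEE1 and CDK1 switch genes, all tested, 14 were lower with a median of -0.20 and 11 did not overlap downward, against 22.9% of all genes. A limma p under 0.05 was reached by 3, or 0 to 2 with a control or treated library left out, and the median was -0.12 without treated replicate 1. Cdc25c, the phosphatase that activates CDK1, stood at 7.98 and 7.29 against 4.48 and 4.92 FPKM (-0.60), and the checkpoint kinase gene Chek1 at 12.6 and 13.3 against 11 and 8.35 FPKM (-0.39). Cdk1 itself stood at 18.3 and 20.0 against 15.6 and 15.8 FPKM (-0.27), and cyclin B1 (Ccnb1) at 20.6 and 22.3 against 18.3 and 19.5 FPKM (-0.18). The median of the list in Free-MK1775 against the same control libraries was -0.17.

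Genes of mitosis followed the same pattern. Of 24, all tested, 21 were lower with a median of -0.23, and 20 did not overlap downward, against 22.9% of all genes. A limma p under 0.05 was reached by 2 of 24, against 4.93% of all genes. In Free-MK1775 against the same control libraries, the median of the list was -0.20. Prc1, which bundles microtubules of the central spindle, stood at 34.4 and 35.6 FPKM in control and 24.9 and 25.6 FPKM in treated libraries (log2 change -0.45), and Top2a, the topoisomerase of dividing cells, at 98.8 and 103 against 73.1 and 75.8 FPKM (-0.44). The proliferation marker Mki67 stood at 28.2 and 26.2 against 22.9 and 19.8 FPKM (-0.34). Their differences were steady within groups but small, and limma adjusted p-values were 0.407 for Prc1, 0.42 for Top2a and 0.532 for Mki67. Myeloid marker sums were higher in the same treated libraries, and their part in these differences was not tested. DNA damage and repair genes had 17 of 21 lower (median -0.20, and -0.20 in Free-MK1775 against control). S phase genes had no common direction, with 12 of 20 higher and 8 lower (median 0.037), 10 and 10 with quantile scaling, and 8 higher and 12 lower once FPKM were rescaled to genes outside the mitochondrial genome. Among them Tk1, thymidine kinase, stood at 22.1 and 25.2 against 29.4 and 35.3 FPKM (0.43), and Mcm6, of the replicative helicase, at 59.9 and 56.7 against 43.4 and 48.6 FPKM (-0.34).

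Targets of p53 were evenly divided, with 8 of 14 tested members higher and 6 lower (median 0.033), and 6 higher and 8 lower with FPKM rescaled to genes outside the mitochondrial genome. 4T1 cells are known to lack functional p53. Cdkn1a, which encodes the cell cycle inhibitor p21, stood at 28.7 and 28.6 FPKM in control and 22.2 and 28.0 FPKM in treated libraries. Sesn1, a stress-induced regulator of mTORC1, stood at 5.09 and 6.06 against 12.1 and 9.35 FPKM (log2 change 0.83, SE 0.16, limma adjusted p = 0.363), and the BH3-only killer gene Bbc3 at 4.87 and 5.99 against 7.42 and 8.89 FPKM (0.51). Of 16 apoptosis and necroptosis genes, 12 were higher with a median of 0.14. Bcl2, which opposes Bbc3, was higher too, at 2.93 and 3.58 against 5.4 and 5.65 FPKM (0.62).

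The ferroptosis defence genes had no common direction at the RNA level. Gpx4, the peroxidase that repairs lipid peroxides, stood at 220 and 261 FPKM in control and 233 and 238 FPKM in treated libraries (log2 change -0.025, SE 0.14). Slc7a11, the cystine importer, stood at 2.82 and 2.54 against 3.04 and 2.67 FPKM (0.066, SE 0.16). Aifm2, which encodes FSP1, stood at 8.23 and 8.39 against 8.26 and 8.23 FPKM. All 3 overlapped between groups. Of 21 tested defence genes, 13 were higher and 8 lower (median 0.053), and with FPKM rescaled to genes outside the mitochondrial genome 10 were higher and 11 lower (median -0.019). Of the 21, 8 did not overlap upward and 4 downward, against 30.6% and 22.9% of all genes. Those apart upward included Dhodh, a mitochondrial enzyme that reduces ubiquinone, at 2.81 and 3.24 against 5.25 and 4.29 FPKM (0.52). The quinone reductase Nqo1, at 3.42 and 3.82 against 4.96 and 5.0 FPKM (0.37), was another.

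Lipid peroxidation drivers had 12 of 16 tested members higher (median 0.18, and 0.088 to 0.27 over the alternatives). Of these 16, 9 did not overlap upward and 3 downward, against 30.6% and 22.9% of all genes. A limma p under 0.05 was reached by 2 upward and 1 downward. Acsl4, which loads polyunsaturated fatty acids into lipids, stood at 18.3 and 19.7 FPKM in control and 21.9 and 25.3 FPKM in treated libraries (log2 change 0.30), and the reductase Por at 37.5 and 34.5 against 48.1 and 44.8 FPKM (0.36). Chac1, a glutathione-degrading enzyme often read as a ferroptosis marker, was lower, at 17.2 and 21.8 against 15.2 and 13.3 FPKM (-0.42), and Ptgs2 overlapped at 28.8 and 42.0 against 35 and 39.2 FPKM. In iron handling, 10 of 16 tested genes were higher and 6 lower (median 0.061), or 8 and 8 after that rescaling. Tfrc, the transferrin receptor that brings iron in, stood at 39.9 and 54.4 against 29.2 and 25.4 FPKM (-0.75), and Slc40a1, the iron exporter ferroportin, at 2.83 and 1.49 against 4.36 and 3.69 FPKM (0.70). Neither was called (limma adjusted p = 0.42 for each). Of the ferritin chains, Fth1 overlapped at 1979 and 1760 against 1901 and 1816 FPKM (-0.0062), and Ftl1 did not, at 1717 and 1652 against 2064 and 1998 FPKM (0.27).

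Around the second drug target, Ido1 stood at 2.85 and 2.63 FPKM in control and 1.28 and 1.0 FPKM in treated libraries (log2 change -0.81, SE 0.15, limma adjusted p = 0.363). Ido2, its paralogue, stood at 1.97 and 1.07 against 0.995 and 0.562 FPKM (-0.49). The AhR target Cyp1b1, an oxidising enzyme, was higher at 14.8 and 17.2 against 31.8 and 30.5 FPKM (0.92, SE 0.17, limma adjusted p = 0.363), and Ahr itself stood at 5.85 and 7.6 against 8.7 and 11.7 FPKM (0.53). In Free-MK1775 libraries Ido1 stood at 3.35 and 3.05 FPKM and Cyp1b1 at 25 and 17.7 FPKM. Cyp1a1, the classical AhR target, and Tdo2 were below the level tested. Of 9 tested genes of the pathway, 5 were higher and 4 lower (median 0.013, -0.005 with median-of-ratios scaling, and -0.032 with FPKM rescaled to genes outside the mitochondrial genome).

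Apart from the immediate early genes, stress and metabolic lists lay near the middle. ATF4 and unfolded protein response genes had 14 of 21 tested members lower (median -0.14), with Ddit3, the transcription factor CHOP, at 21.0 and 26.2 FPKM in control and 17.2 and 14.8 FPKM in treated libraries (log2 change -0.53). Hypoxia and glycolysis genes had 12 of 18 lower (median -0.058), with the vasoactive peptide gene Adm at 30.6 and 41.0 against 22.9 and 21.5 FPKM (-0.65) and Ldha, lactate dehydrogenase, at 584 and 652 against 699 and 765 FPKM (0.24). Ribosomal protein genes had 21 of 24 higher by a small amount (median 0.13), but 14 higher and 10 lower with quantile scaling or with FPKM rescaled to genes outside the mitochondrial genome, and 13 and 11 without control replicate 1. Immediate early genes, which cells switch on soon after a stimulus, had 12 of 16 lower (median -0.32), but the median was -0.076 without control replicate 2 and -0.13 without treated replicate 1. Fosl1 stood at 30.9 and 26.8 against 16.9 and 19.5 FPKM (-0.64) and Fosb at 3.05 and 4.35 against 1.43 and 2.28 FPKM (-0.72). The other Fos and Jun family members of the list, looked up after values were seen, overlapped between groups: Fos (-0.29), Jun (-0.41), Junb (-0.34) and Jund (-0.032). Among heat shock genes, Hspa1a stood at 24.8 and 59.6 against 91.2 and 112 FPKM and its near-identical copy Hspa1b at 118 and 288 against 30.3 and 164 FPKM. These copies lie at 1 locus in the assembly, how fragments were divided between them is uncertain, and with transcripts that carry a symbol only Hspa1a was lower (-0.32).

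Interferon and lymphocyte genes followed, and none was called. Interferon gamma response genes had 13 of 18 lower (median -0.25), but the median ran from -0.54 without control replicate 2 to 0.095 without control replicate 1. Irf1, its lead transcription factor, stood at 80.7 and 66.9 FPKM in control and 56.3 and 58.5 FPKM in treated libraries (log2 change -0.35), and the T cell attractant Cxcl9 overlapped at 53.3 and 33.3 against 34.3 and 36.6 FPKM. Type I interferon response genes had 11 of 20 higher (median 0.027), or 8 of 20 with FPKM rescaled to genes outside the mitochondrial genome. MHC class I presentation genes had 13 of 16 higher (median 0.089), or 8 and 8 with quantile scaling or with FPKM rescaled to genes outside the mitochondrial genome, with the immunoproteasome subunit Psmb9 at 50.9 and 52.6 against 58.0 and 71.1 FPKM (0.31). The checkpoint ligand gene Cd274, encoding PD-L1, overlapped at 17.1 and 10.9 against 11.9 and 10.5 FPKM. T and NK cell markers were low and split 6 to 6 (median 0.028), with medians from -0.30 without treated replicate 2 to 0.30 without treated replicate 1. Cd8a, the co-receptor of cytotoxic T cells, stood at 1.78 and 0.46 against 1.09 and 1.27 FPKM. Granzyme B (Gzmb) stood at 11.9 and 6.09 against 6.67 and 9.77 FPKM. Of 10 B and plasma cell markers only 4 were tested, and none of the 4 overlapped between groups (of all genes, 30.6% lay apart upward and 22.9% downward). Ighm and Igkc, an antibody heavy and light chain gene, went opposite ways, at 5.18 and 5.18 against 7.96 and 8.65 FPKM (0.59) and at 8.19 and 3.3 against 0.453 and 2.68 FPKM (-1.44), and both rest on loci shared with other symbols. Jchain, which joins antibody units, stood at 2.26 and 2.05 against 0.722 and 1.48 FPKM (-0.61), and Sdc1, which epithelial cells also express, at 34.1 and 34.8 against 54.6 and 58.0 FPKM (0.69, limma adjusted p = 0.34).

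**Figure D5:**
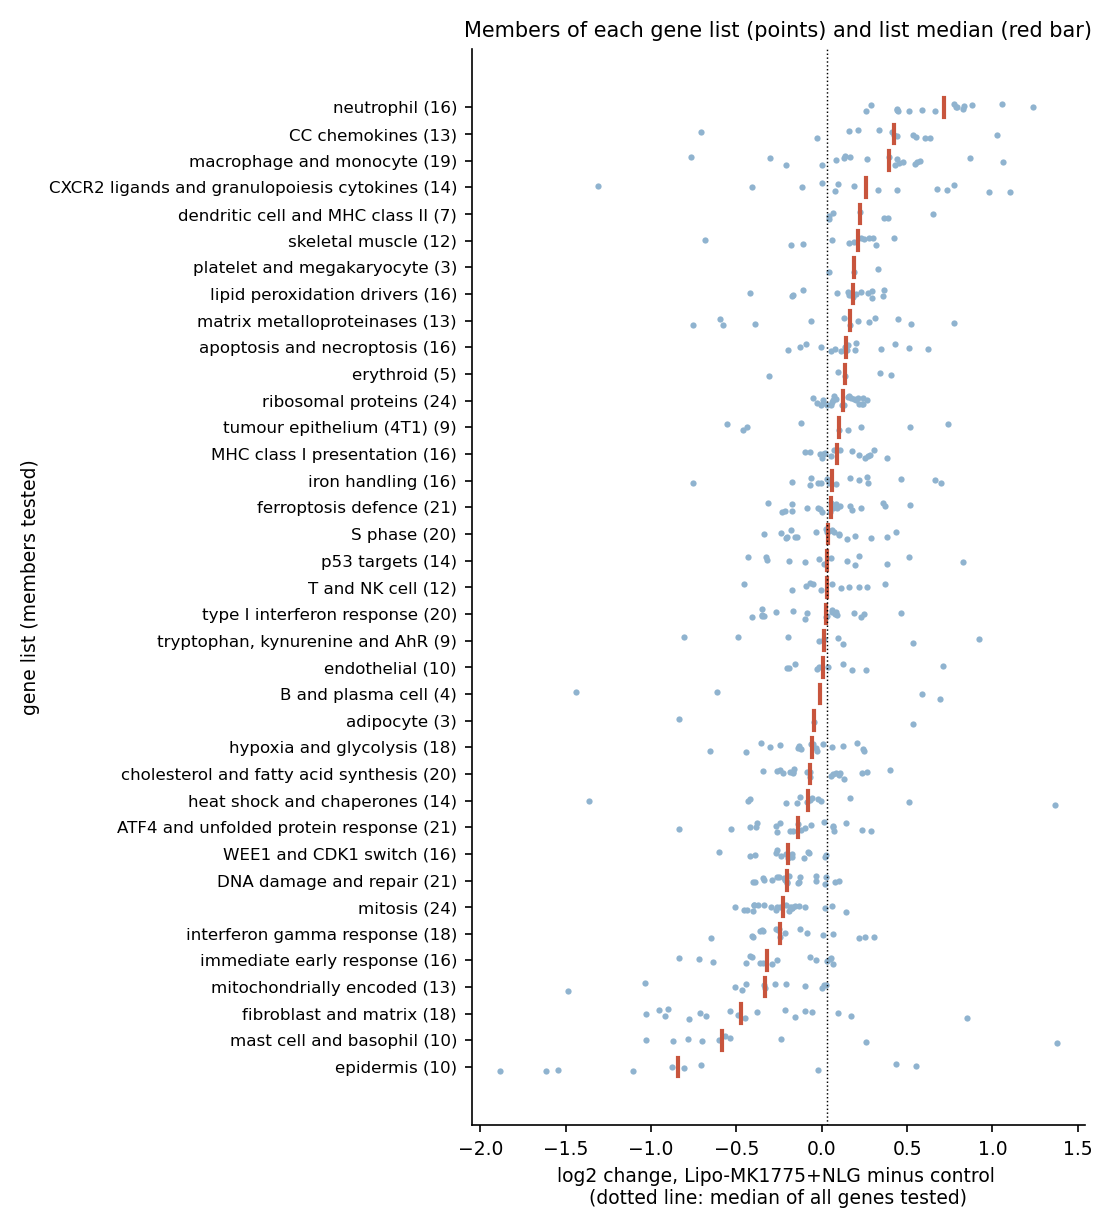
Points are tested members of each of the 37 gene lists (rows, with the number tested), placed by log2 change of Lipo-MK1775+NLG minus control (x axis); red bars are list medians and the dotted line is the median of all genes, 0.029. The neutrophil list lies highest at 0.72 and epidermis lowest at -0.84, and epidermis members spread from -1.89 to 0.55.

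Some lists followed single libraries rather than groups. Epidermal markers, which in a subcutaneous tumour mark skin, summed to 506 and 2.82 FPKM in control and 4.29 and 362 FPKM in treated libraries, so 1 library of each group carried nearly all of the signal. The keratin Krt10 stood at 67.5 and 1.72 against 1.56 and 7.54 FPKM. The list median went from -3.19 to 1.58 as single libraries were left out, and no direction can be given. Skeletal muscle markers summed to 139 and 41.9 FPKM in control and 98.4 and 81.5 FPKM in treated libraries. Endothelial markers split 5 to 5 and stood at summed levels of 111 and 93.0 against 112 and 98.0 FPKM. The part of skin and muscle in the results above was not tested.

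The combination was also set directly against Free-MK1775 in the same fit, which asks how the Lipo form with NLG differed from free drug without NLG919. Limma called 1 of 12485 genes (0.00801%), the pseudogene Rps18-ps6, with 600 genes at an unadjusted p under 0.05. Rps18-ps6 was listed at 302 and 592 FPKM in the combination and at 0 in both Free-MK1775 libraries, and at 537 and 518 FPKM in control. A related pseudogene, Rps18-ps4, looked up after these values were seen, was at 324 and 304 FPKM in Free-MK1775, 156 and 0 FPKM in the combination and 0 in both control libraries. Both are copies of Rps18, a ribosomal protein gene, and the assignment of fragments between them is uncertain. Prl2c3 was lower in the combination than in Free-MK1775 by a log2 difference of -1.57 (SE 0.19, limma adjusted p = 0.212), whereas Il24 differed by -0.16 (SE 0.15, limma adjusted p = 0.973). Mcpt8 was higher by 1.6 (SE 0.14, limma adjusted p = 0.0911) and Retnlg by 1.67 (SE 0.17, limma adjusted p = 0.176). Il33 was lower by a log2 difference of -2.09 and Mfap5 by -1.57 (limma adjusted p = 0.176 for each). Except for the pseudogene, no difference between these treated groups was called, and the Lipo form and NLG cannot be told apart in this comparison.

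Between the treated groups, the list medians differed most for globin and other erythroid genes. Of 8, 5 were tested and all 5 were lower in the combination than in Free-MK1775, with a median of -1.69. Hbb-bs, an adult beta globin, stood at 27.1 and 35.4 FPKM in control, 26 and 44.8 FPKM in the combination and 134 and 122 FPKM in Free-MK1775 libraries, so the combination overlapped control and Free-MK1775 stood apart. Neutrophil markers were higher in the combination for 14 of 16 (median 0.77), and fibroblast and matrix markers lower for 17 of 18 (median -0.30).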

How the data were processed

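RNA of whole tumours was sequenced from NEBNext Ultra libraries. The submitters' processing notes name FastQC, Trim Galore, HISAT2, StringTie and GRCm39, without versions or settings. The authors deposited FPKM per transcript, with mitochondrial transcripts in the total; read depth is unknown. Gene symbols were absent for 21051 of the 161762 transcripts. Of these, 14868 went to the gene they overlap most on the same strand and 6183 were left out, and FPKM were summed per symbol into 52324 genes. A gene was tested where 2 or more of 6 libraries reached an FPKM of 1. Values were log2(FPKM + 1), so changes of low genes are understated. The test was limma 3.58.1 in R 4.3.3, two-sided, with a variance trend and a mean per group over negative control, Free-MK1775 and Lipo-MK1775+NLG (3 residual degrees of freedom), Benjamini-Hochberg adjusted over all genes tested and called under 0.05.

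Of the genes tested, 1699 share a locus with another symbol. The labels do not state whether counting used strand, so overlapping and antisense genes cannot be told apart. The fit was tested on simulated data. Named genes are the 12 largest called changes in each direction without overlap between groups and with the same sign when only transcripts with a symbol are summed, filled to 12 by unadjusted p among uncalled genes that changed by at least 1 log2 unit; predicted genes and pseudogenes were not eligible. The 4 members of smallest p of each of 37 gene lists and 28 further genes were added. The comparison, the lists and the members were chosen with earlier results of these data known. Promoters and transcripts came from RefSeq and GENCODE tables of GRCm38. Alternatives were the pseudocount (0.1 and 0.5), the filter, 3 scalings, the transcript summary, the variance trend, the libraries that set the spread, a replicate block and each library left out. The 4 libraries of Free-MK1775+NLG919 and Lipo-MK1775 entered only the fit of all 10 libraries.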

Additional observations from a re-analysis of the deposited data

Results flagged for a closer look

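Rps18-ps6 was higher in Lipo-MK1775+NLG than in Free-MK1775 by 8.73 on the log2(FPKM + 1) scale and was picked out because the difference between these treated groups was itself called by limma. It was listed at 0 in both Free-MK1775 libraries, so no fold is given.

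Signal outside the comparison also stood out. Mitochondrial transcripts made up 47.3% of the summed FPKM in Free-MK1775+NLG919 replicate 2, 64.1% in Lipo-MK1775 replicate 1 and 56.0% in Lipo-MK1775 replicate 2, against 4.79% and 3.7% in the control libraries. None of these 3 libraries entered the comparison, and the reason for their share was not tested.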

How the results depend on the processing

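The count of genes called against control was 2, and 0 without the filter on low values (2130 genes at an unadjusted p under 0.05), 1 with an FPKM of at least 5 asked for, 0 with transcripts that carry a symbol only (1025 at an unadjusted p under 0.05), and 0 with the replicate number as a replicate block (1107 at an unadjusted p under 0.05). Correlations of deviations between same-numbered libraries were -0.357 for control with Free-MK1775, -0.335 for control with Lipo-MK1775+NLG and 0.0244 for Free-MK1775 with Lipo-MK1775+NLG. The negative values mean that control replicate 1 deviated more like replicate 2 of the other groups. With 2 libraries per group, whether libraries share a batch cannot be told from these values. A replicate block with the control numbers crossed, chosen after seeing the data, also gave 0 calls (1410 at an unadjusted p under 0.05). The count was 3 with a pseudocount of 0.1 and with only the 4 libraries compared, where the predicted gene Gm28037 joined. Gm28037 was at 0 in both control libraries and at 31.5 and 24.5 FPKM in treated ones. In the Free-MK1775 libraries it was at 4.81 and 24.7 FPKM. These fits had 1479 and 2262 genes at an unadjusted limma p under 0.05, against 1478 in the main fit. With all 10 libraries Prl2c3 and Gm28037 were called, and Il24 was not (limma adjusted p = 0.226). That fit had 181 genes at an unadjusted limma p under 0.05. Leaving out each library gave 0 to 2 calls against control and 1 to 2 against Free-MK1775, where Retnlg joined without Free-MK1775 replicate 2 and Rps18-ps4 without Lipo-MK1775+NLG replicate 1. Of 2063 gene values under the alternatives, 30 changed sign, in 21 uncalled genes. With transcripts that carry a symbol only these were Aifm2 (0.15), Col5a1 (-0.025) and Hspa1a (-0.32), and with quantile scaling Krt18 (-0.026) and Sparc (-0.043). Transcripts that carry a symbol only also moved Cxcl5 from 1.10 to 0.50, Dhodh from 0.52 to 0.33, Per1 from -1.20 to -1.83, Por from 0.36 to 0.86, Psmb9 from 0.31 to 0.18 and Tk1 from 0.43 to 1.12. As single libraries were left out, the change ranged across 0 for Aifm2 (-0.022 to 0.0021), Cd274 (-0.57 to 0.032), Cd8a (-0.35 to 0.58), Col5a1 (-0.0037 to 0.35), Cxcl9 (-0.58 to 0.089), Epcam (-1.34 to 0.41), Fn1 (-0.28 to 0.085), Fos (-0.60 to 0.014), Fth1 (-0.091 to 0.079), Gpx4 (-0.15 to 0.10), Gzmb (-0.50 to 0.36), Hbb-bs (-0.25 to 0.52), Jund (-0.26 to 0.19), Krt10 (-3.87 to 0.79), Krt18 (-0.23 to 0.43), Krt8 (-0.034 to 0.50), Ptgs2 (-0.18 to 0.35), Rps18-ps6 (-0.80 to 0.17) and Slc7a11 (-0.0029 to 0.14). Of 703 list medians, 70 moved by more than the spread between libraries. The cause was not tested. Limits are the 2 libraries per group, the unknown read depth, and the absence of groups given NLG919 without MK1775 or an empty carrier.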
